A study of Mus musculus with 15 samples.

Results

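Livers of BALBc pups were compared with livers of C57 pups, both collected after hyperoxia. The comparison used 8 of the 15 liver libraries of the series, 4 labelled BALBc hyperoxia and 4 labelled C57 hyperoxia. Genes were kept where the deposited FPKM (fragments per kilobase of transcript, scaled to library depth) was at least 1 in at least 3 of these 8 libraries, which left 12305 of the 54532 genes in the table. The series set a strain that resists oxygen-induced retinopathy, a rodent model of retinopathy of prematurity, beside a susceptible strain, and its stated interest was hepatic metabolism. BALBc hyperoxia pups lived in room air until postnatal day 7 and in 75% oxygen until day 12, and C57 hyperoxia pups had the same schedule. The 3 BALBc normoxia and 4 C57 normoxia libraries came from pups of the same age kept in room air. The labels name no drug, engineered allele or operation in any group, and they give neither the substrain, the sex nor the number of animals behind a library.

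A suckling pup lives on milk fat, and its liver oxidises fatty acids, makes ketone bodies and supplies plasma proteins. The nuclear receptor PPARA binds fatty acids and switches on the genes of mitochondrial and peroxisomal oxidation, acyl-CoA thioesterases and lipid droplet coats, whereas the factor SREBP2 switches on cholesterol synthesis when sterols are scarce. At this age the liver is also a blood-forming organ that is winding down, so its RNA holds transcripts of red cell, platelet and granulocyte precursors beside those of hepatocytes and resident macrophages. Inbred strains differ in addition by fixed alleles, such as those of the major histocompatibility complex on chromosome 17.

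Each library rested on 1.49e+07 to 1.86e+07 fragments, as read from the steps in which low FPKM values lay. Log2 values of 2 libraries of one strain correlated with r of 0.975 to 0.987 across the 12305 genes, and those of 2 libraries of different strains with r of 0.934 to 0.947. BALBc hyperoxia 1 and all 4 C57 hyperoxia libraries had many genes at a single fragment (29.7% to 33.2% of the genes at 1 to 10 fragments), whereas BALBc hyperoxia 2 to 4 had few (12.7% to 17.8%), so this property runs partly with strain. It also runs with oxygen, since C57 normoxia 1 to 3 had few such genes and C57 normoxia 4 had many. The 3946 calls described here became 1940 with library class (many or few genes at a single fragment) as a term over 15 libraries, and 1394 in a fit with BALBc hyperoxia 1 as the only BALBc library, where all 5 libraries share the property. The fit over 15 libraries without library class as a term gave 2988 calls, so only part of the fall to 1940 came with that term. Xist, the transcript of the inactive X chromosome, reached an FPKM of 1 in 2 BALBc and 1 C57 hyperoxia libraries. Of 12 markers of the exocrine pancreas, 11 stood at 0.306 FPKM or below in every BALBc hyperoxia library, and Ctrb1 (chymotrypsinogen) reached 42.7 FPKM in C57 hyperoxia 3. The exception was the elastase gene Cela1, with 1.90, 2.89, 2.07 and 2.99 FPKM in BALBc and 2.91, 2.93, 6.34 and 3.33 FPKM in C57 livers. The liver identity of the libraries was plain, with Apoa2, the second main protein of high-density lipoprotein, at 6712 ± 285 FPKM in BALBc and 6806 ± 225 FPKM in C57 livers (SD, n = 4 each).

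The livers of the strains differed broadly and about evenly in both directions. At an adjusted p under 0.05 (limma on log2(FPKM + 1), Benjamini-Hochberg), 3946 of 12305 genes were called (32.1%), of which 2008 were higher (16.3% of genes tested) and 1938 lower (15.7%) in BALBc hyperoxia livers. Most differences were modest, with a median size of 0.45 on the log2 scale, and 536 genes (4.36%) differed at least 2-fold, 255 higher (2.07%) and 281 lower (2.28%). The 4 BALBc values did not overlap the 4 C57 values for 4070 genes (33.1%). Calls were more frequent among abundant transcripts: 64.1% of genes whose higher group averaged 100 FPKM or more were called, against 23.5% of those between 1 and 5. The median difference over all genes was 0.00 on the log2 scale, so gene groups are read against a centre of no difference.

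**Figure D1:**
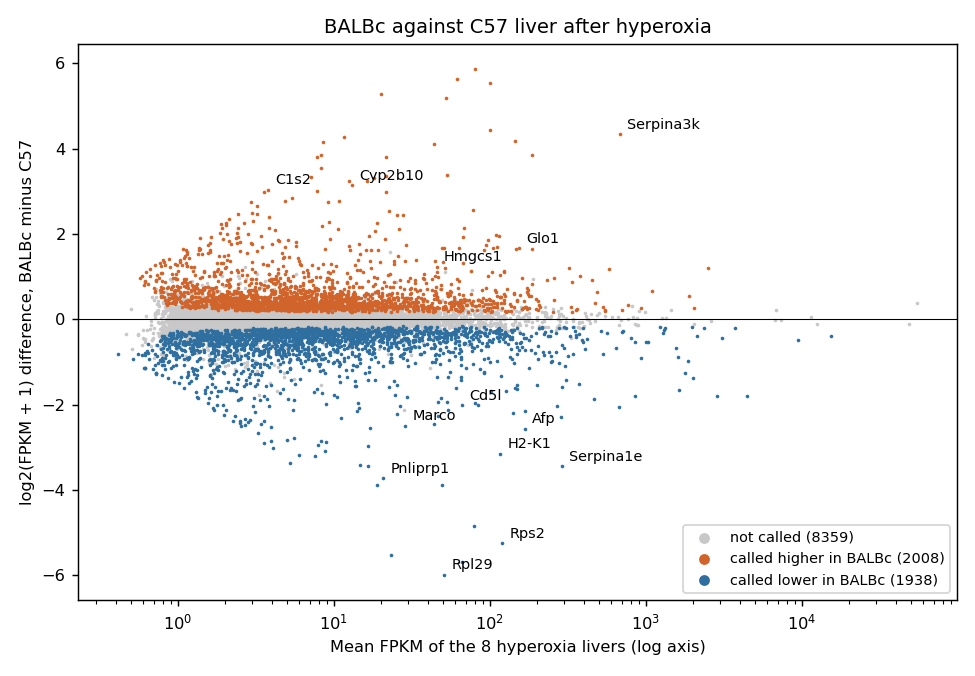
Difference between BALBc and C57 hyperoxia livers (log2 scale, BALBc minus C57) against the mean FPKM of the 8 libraries (log axis) for the 12305 genes tested. Coloured points are the 3946 genes called, 2008 above and 1938 below, and the labelled points include Serpina3k at 4.34 and Rpl29 at -5.99.

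The largest differences among protein-coding genes joined secreted and metabolic enzymes with genes that have near-identical copies. Serpina3k, a serine protease inhibitor of plasma (ENSMUSG00000058207 at chr12:104338486-104346144 of GRCm38), had 1124, 1349, 1213 and 1535 FPKM in BALBc livers and 40.1, 102, 83.1 and 46.4 FPKM in C57 livers, a log2 difference of 4.34 ± 0.27 (SE; limma adjusted p = 4.25e-06). The lowest BALBc value exceeded the highest C57 value. C1s2, which encodes a C1s-type complement protease, had 6.99, 7.73, 7.29 and 8.15 FPKM in BALBc and 0.0236, 0.0248, 0.0252 and 0.0931 FPKM in C57 livers. It was thus nearly silent in all 4 C57 libraries (log2 difference 3.03 ± 0.07, adjusted p = 7.84e-09). Cyp2b10, a phenobarbital-inducible cytochrome P450, stood at 24.4 ± 2.95 against 1.97 ± 0.889 FPKM, and Ces1f, a carboxylesterase, at 30.3 ± 4.63 against 2.62 ± 2.08 FPKM (BALBc against C57, SD, n = 4 each). Prg2, the eosinophil major basic protein, Slc4a1, the red cell anion exchanger, and the aspartic protease gene Ctse completed the side of high values together with Lrrc24, at 7.16 ± 1.33 against 0.0294 ± 0.0233 FPKM, Hamp2, Eno1b, Gm11361 and Gm47283.

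Of the 12 largest reductions in BALBc, 5 were ribosomal protein genes and 1 was mt-Nd3. Pnliprp1, a pancreatic lipase relative, had 1.63, 1.89, 2.54 and 2.09 FPKM in BALBc and 38.8, 34.8, 51.8 and 32.6 FPKM in C57 livers (log2 difference -3.72 ± 0.14, adjusted p = 1.43e-07). Its highest value, like that of Ctrb1, was in C57 hyperoxia 3, and the part of pancreas RNA in it was not tested. Akr1c18, which inactivates progesterone, had 1.61, 0.981, 1.76 and 2.27 FPKM in BALBc and 24.98, 26.5, 40.9 and 19.5 FPKM in C57 livers (-3.42 ± 0.21 on the log2 scale, adjusted p = 4.63e-06), with no overlap between strains. Serpina1e, an alpha-1 antitrypsin gene, averaged 47.2 ± 6.10 FPKM in BALBc and 534 ± 130.3 FPKM in C57, and H2-K1, a classical class I antigen-presenting molecule, 23.3 ± 6.55 and 211 ± 32.2 FPKM (SD, n = 4 each). The cone phosphodiesterase gene Pde6c and the chromatin gene Hmgn2 were also among the 12.

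Genes with a near-identical second copy took a large share of the strongest differences. A gene was compared with every other annotated gene through its 31-base words. Of 9660 genes with under 5% of their words shared, 2.73% were called at least 2-fold, against 6.73% of 1871 genes with 5 to 50% shared and 18.9% of 751 genes with at least 50% shared. Ahcy (adenosylhomocysteinase, which clears the product of methylation reactions, ENSMUSG00000027597 at chr2:155059310-155074497) and Gm4737 (ENSMUSG00000048087 at chr16:46152985-46155077) show the pattern. Their coding sequences of 1296 bases differ at 4 bases (99.7% identical). The stretch below, coding bases 385 to 474 in the GENCODE M21 transcripts, is printed to show how alike the genes are; capitals mark the 2 of the 4 differing bases that lie in it.
Ahcy: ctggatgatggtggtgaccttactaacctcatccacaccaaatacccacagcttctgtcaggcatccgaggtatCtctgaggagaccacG
Gm4737: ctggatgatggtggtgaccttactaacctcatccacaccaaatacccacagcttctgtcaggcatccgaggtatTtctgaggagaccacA
Ahcy had 65.3, 75.1, 68.0 and 73.2 FPKM in BALBc and 218, 221, 197 and 237 FPKM in C57 livers, a log2 difference of -1.62 ± 0.07 (SE) (adjusted p = 4.8e-07). Gm4737 had 162, 176, 179 and 170.0 FPKM in BALBc and 52.7, 53.0, 47.1 and 56.2 FPKM in C57 livers, a log2 difference of 1.70 ± 0.07 (adjusted p = 1.6e-07). The libraries were split the opposite way by each gene, without overlap. Summed over the pair and a further copy, Gm9826, they gave 558.1 ± 24.3 depth-scaled fragments (FPKM times gene length in kilobases) in BALBc and 740.6 ± 54.5 in C57 livers (SD, n = 4 each).

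Other pairs were split in the same way. Eno1, the glycolytic enolase, had 30.7 ± 2.75 FPKM in BALBc and 65.0 ± 4.38 in C57, and its copy Eno1b, 99.4% identical in coding sequence, had 39.3 ± 4.52 in BALBc and 4.11 ± 0.888 in C57. Their sum with Gm4735 was 291.3 ± 21.6 against 361.2 ± 25.8 depth-scaled fragments (BALBc against C57, SD, n = 4 each). Rpl26 nearly vanished from BALBc, at 2.32, 2.98, 0.504 and 1.19 FPKM, against 134, 143, 127 and 121 FPKM in C57 livers, but the sum with its copies was 155.5 ± 7.35 against 201.4 ± 12.3 depth-scaled fragments. For Rps2 that sum was 272.6 ± 20 against 472 ± 42.5, and for Fabp5, a fatty acid-binding protein, with Gm6166 it was 348.7 ± 43.7 against 610.9 ± 122.5. Rps18 with its copies gave 78.0 ± 8.02 against 386.1 ± 33.2, a log2 ratio of -2.31 where Rps18 by itself gave -5.09. Rpl29 with its copies gave 25.6 ± 6.52 against 136.0 ± 7.35, a log2 ratio of -2.41 where Rpl29 by itself gave -7.35. Glo1 with Gm13443 kept its difference, with 2895 ± 97.5 against 880.7 ± 39.8 depth-scaled fragments. For these sums a copy was any gene that shared at least 50% of the 31-base words of the shorter gene, whatever its level. Those of Igf2 and Acot3, for example, stayed below 1 FPKM. Among 163 genes called at least 2-fold with a copy on this rule, 94 had a summed ratio under 2-fold. Levels of single members of these families are therefore uncertain, and a read's origin was not tested here.

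Genes known to differ between inbred strains gave the labels a check. H2-Ea-ps, the class II alpha-chain gene whose C57 allele is not expressed, had 15.97, 17.1, 14.9 and 20.3 FPKM in BALBc livers and was listed at 0 in all 4 C57 livers. Ifi202b, an interferon-inducible DNA-binding protein, had 3.05, 3.27, 1.99 and 2.78 FPKM in BALBc livers and was likewise listed at 0 in all 4 C57 libraries. Glo1, which removes methylglyoxal and whose copy number varies among inbred strains, had 232, 237, 224 and 242 FPKM in BALBc and 70.7, 77.1, 73.3 and 69.7 FPKM in C57 livers (log2 difference 1.67 ± 0.06, adjusted p = 5.59e-08). Every library thus matched its strain label at these loci. Of 21 tested genes on this list, 7 were higher and 9 lower in BALBc. Gbp2b (2.01 on the log2 scale), Alpl (0.95), Lipc (0.25) and Fmo5 (0.32) completed the higher group, and Ly6a (-1.42), Trim30d (-1.30), Soat1 (-0.61), Ahr (-0.39) and Hc (-0.20) belonged to the lower one with Afp, H19 and Gpc3, described below. With BALBc hyperoxia 1 as the only BALBc library, 5 were called higher and 4 lower. The other 5 did not pass the test, among them Apoa2 (-0.02), Acads (0.01) and Zhx2, a repressor of fetal liver genes (0.18). Nnt, the mitochondrial transhydrogenase that some C57 substrains lack, fell below the expression filter in both strains under the identifier used, with 0.307, 0.195, 0.311 and 0.200 FPKM in BALBc and 0.143, 0.0658, 0.200 and 0.229 FPKM in C57 livers; the annotation holds an overlapping second identifier for it.

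Fat-burning genes were higher in BALBc. Of 25 tested genes of mitochondrial fatty acid oxidation and ketogenesis, 18 were higher and 0 lower in BALBc (median log2 difference 0.34). The groups did not overlap for any of the 18, as for 3551 of the 3946 genes called in all. Cpt1a, the gatekeeper of fatty acid entry into mitochondria, had 208, 219, 221 and 196 FPKM in BALBc and 131, 135, 141 and 131 FPKM in C57 livers (log2 difference 0.64 ± 0.06, adjusted p = 4.67e-05). Acadvl, which takes the first oxidation step of long chains, averaged 134 ± 2.93 against 85.9 ± 2.31 FPKM, and Etfdh, which passes the electrons on, 52.5 ± 1.78 against 32.2 ± 1.76 (BALBc against C57, SD, n = 4 each). The receptor gene Ppara itself had 55.0, 46.4, 50.7 and 46.3 FPKM in BALBc and 32.2, 30.004, 29.9 and 28.2 FPKM in C57 livers (0.70 ± 0.07, adjusted p = 9.96e-05). Pdk4, which holds back pyruvate oxidation, was the largest difference of the list at 1.12 ± 0.15 (adjusted p = 0.000566). With BALBc hyperoxia 1 as the only BALBc library against the 4 C57 libraries, a fit in which that lone library is assumed to vary like the C57 ones, 9 genes were called higher and 1 lower.

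Peroxisomal and microsomal oxidation followed the same direction, with 15 of 24 tested genes higher and 1 lower (median 0.39). The peroxisomal thiolase Acaa1b had 745, 906, 842 and 738 FPKM in BALBc and 366, 366, 339 and 343 FPKM in C57 livers (1.19 ± 0.08, adjusted p = 4.97e-06). Its relative Acaa1a averaged 105 ± 9.99 against 47.2 ± 2.06 FPKM, the bifunctional enzyme Ehhadh 169 ± 3.34 against 77.7 ± 12.0 FPKM, and Pex11a, which drives peroxisome division, 13.2 ± 0.854 against 5.69 ± 0.583 FPKM. Each of these lay above every C57 value in every BALBc library. The omega-hydroxylases Cyp4a10 (1.63) and Cyp4a14 (0.92) were higher too, whereas Cyp4a31 (-1.83) was the single lower member, and these 3 belong to a family of near-identical genes and were singled out after their values were seen. The count was 6 higher and 1 lower with BALBc hyperoxia 1 alone.

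**Figure D2:**
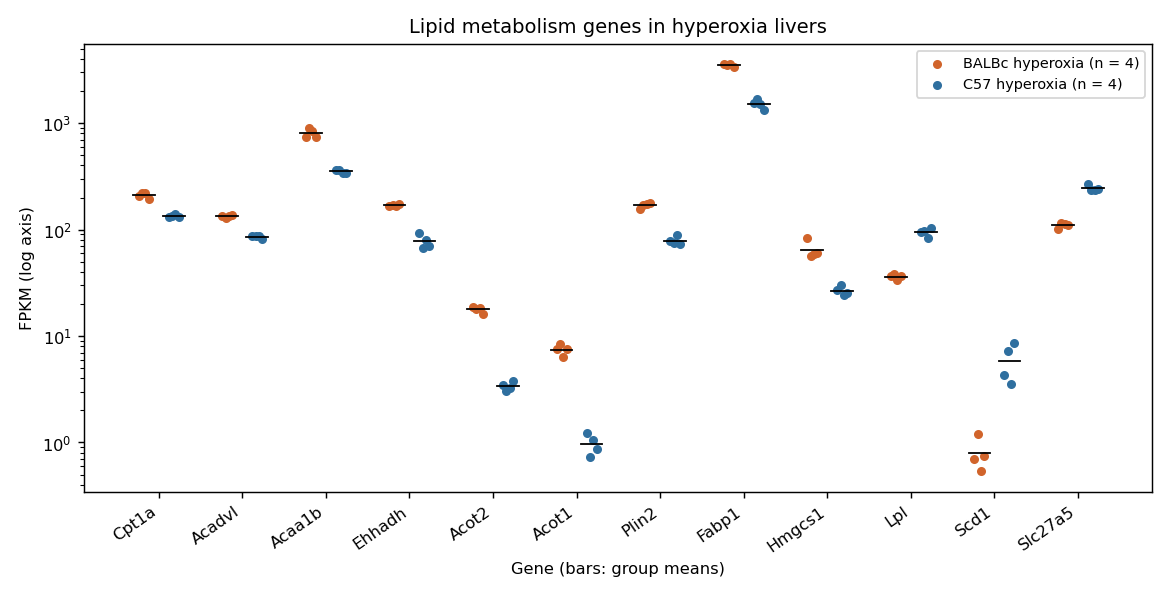
FPKM of 12 genes of lipid metabolism in each hyperoxia liver (log axis); points are libraries, BALBc left and C57 right in each pair, and bars mark group means. BALBc values lie above all C57 values for 9 of the genes and below them for Lpl, Scd1 and Slc27a5.

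Acyl-CoA thioesterases, which free fatty acids from coenzyme A, had 6 of 10 tested genes higher and 0 lower (median 0.64). Acot2, Acot1, Acot4 and Acot3 lie side by side at chr12:83987861-84060402. Acot2, the mitochondrial form, had 18.9, 18.0, 18.5 and 16.1 FPKM in BALBc and 3.43, 3.01, 3.24 and 3.81 FPKM in C57 livers (2.11 ± 0.08, adjusted p = 9.62e-08). Acot1, the cytosolic form, had 7.52, 8.45, 6.35 and 7.54 FPKM in BALBc and 1.23, 0.726, 1.06 and 0.87 FPKM in C57 livers (2.10 ± 0.10, adjusted p = 8.78e-07). Acot3 averaged 23.1 ± 5.82 against 6.04 ± 1.09 FPKM and Acot4, both of peroxisomes, 20.9 ± 2.54 against 8.79 ± 0.458 FPKM. All 4 neighbours separated the strains completely, but their sequences are alike, so the split of reads among them is uncertain. Restricted to genes with few shared 31-base words, an alternative chosen after seeing the data, the list kept 4 genes, 1 of them higher, with a median of 0.02.

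Lipid storage and fatty acid handling also differed. Among lipid droplet genes and lipases, 12 of 18 tested were higher and 2 lower (median 0.42). The droplet coat gene Plin2 had 156, 170.4, 175 and 177 FPKM in BALBc and 78.3, 74.2, 88.2 and 73.8 FPKM in C57 livers (1.10 ± 0.07, adjusted p = 6.3e-06), and Plin5, the coat of oxidative tissue, 27.3 ± 2.997 against 14.5 ± 1.27 FPKM. Mgll, the last step of triglyceride breakdown, averaged 64.2 ± 5.41 in BALBc and 24.5 ± 2.69 FPKM in C57. Lpl, which clears plasma triglyceride, went the other way, with 36.7, 38.1, 33.7 and 36.3 FPKM in BALBc and 94.4, 96.7, 83.7 and 103 FPKM in C57 livers (-1.36 ± 0.07, adjusted p = 1.78e-06); Pnpla3 (-0.63) was the other lower member. Fabp1, the abundant fatty acid carrier of liver, had 3568, 3529, 3564 and 3349 FPKM in BALBc and 1534, 1698, 1504 and 1336 FPKM in C57 livers (1.21 ± 0.07, adjusted p = 3.2e-06). Angptl4, a secreted brake on lipoprotein lipase, averaged 27.1 ± 1.56 against 6.39 ± 1.81 FPKM (1.96 ± 0.15, adjusted p = 1.23e-05), so BALBc livers combined low Lpl with high Angptl4 transcript. With BALBc hyperoxia 1 as the only BALBc library, 7 lipid droplet genes were called higher and 1 lower.

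Cholesterol synthesis was higher as a group: 18 of 23 tested genes were higher in BALBc and 1 lower, with a median log2 difference of 0.48, and Srebf2 itself was among the higher ones. Hmgcs1, the cytosolic synthase at the head of the pathway, had 82.9, 56.0, 59.4 and 59.7 FPKM in BALBc and 27.1, 30.4, 24.1 and 25.2 FPKM in C57 livers (1.23 ± 0.12, adjusted p = 9.27e-05). Fdft1, squalene synthase, averaged 28.6 ± 2.13 against 19.8 ± 0.856 FPKM and Tm7sf2, a sterol reductase, 13.9 ± 0.797 against 8.56 ± 0.745 FPKM. Sc5d, which acts near the end of the pathway, was the single lower member at 39.7, 33.6, 36.4 and 35.4 FPKM in BALBc and 58.4, 66.9, 55.0 and 60.2 FPKM in C57 livers (-0.71 ± 0.08, adjusted p = 0.000128). With library class as a term over 15 libraries, 9 genes of the list were called higher and 1 lower.

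A short promoter word was looked up because these genes moved together. A sterol regulatory element, TCACNCCAC, was searched on both strands of the 250 bases before the start in 32851 promoter windows of RefSeq (GRCm38.p6). It occurred in 1.05% of the windows, in 1.3% of 8845 tested genes matched by symbol and in 1 of 17 cholesterol synthesis genes so matched. That gene was Hmgcs1, whose match began 137 bases before the start. The 89 bases around it, chr13:119690174-119690262 on the plus strand, are shown with the match in capitals.
Hmgcs1: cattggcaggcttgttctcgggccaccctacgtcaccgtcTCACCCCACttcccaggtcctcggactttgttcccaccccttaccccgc
The direct repeat bound by PPARA with its partner was searched likewise, as AGGNCA followed by 1 free base and AGGNCA again on both strands. It occurred in 0.338% of the windows, in 0.35% of tested genes and in 0 of 14 peroxisomal, 20 mitochondrial and 8 thioesterase genes matched. This says only that these letters are absent from the bases searched in these genes.

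Fatty acid synthesis split. Of 20 tested genes, 6 were higher and 4 lower in BALBc. Thrsp, a lipogenic regulator, was at 2.05, 2.08, 1.85 and 2.10 FPKM in BALBc and 0.0861, 0.453, 0.184 and 0.17 FPKM in C57 livers (1.31 ± 0.11, adjusted p = 3.41e-05), and Acacb, which makes the malonyl-CoA that restrains Cpt1a, at 1.58 ± 0.274 against 0.326 ± 0.103 FPKM. Scd1, the main desaturase of liver, was low in BALBc with 0.692, 1.20, 0.534 and 0.739 FPKM, against 4.34, 7.17, 3.52 and 8.52 FPKM in C57 livers (-1.89 ± 0.23, adjusted p = 0.000266). The C57 values of Scd1 spread widely, yet the lowest was still above every BALBc value. Among genes that desaturate and elongate polyunsaturated fatty acids 9 of 16 were higher and 4 lower: Fads2, the entry desaturase, averaged 588 ± 36.9 against 312 ± 23.2 FPKM and Fads3 9.74 ± 0.552 against 4.69 ± 0.517, whereas Fads6 was lower at 5.38 ± 0.46 against 11.1 ± 1.07 FPKM. Using BALBc hyperoxia 1 alone, 3 synthesis genes were called higher and 2 lower, and 5 of the polyunsaturated list higher and 1 lower.

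Bile acid genes leaned downward, with 10 of 22 tested lower and 5 higher (median -0.31), or 2 lower and 3 higher with BALBc hyperoxia 1 as the only BALBc library. Slc27a5, the ligase that readies bile acids for conjugation, had 101, 116, 113 and 109.7 FPKM in BALBc and 270.1, 233, 237 and 242 FPKM in C57 livers (-1.15 ± 0.07, adjusted p = 3.2e-06). The uptake carrier Slco1a4 averaged 6.33 ± 1.21 against 17.9 ± 4.20 FPKM. The phospholipid exporter Abcb4 (0.57) and the basolateral exporter Abcc3 (19.7 ± 1.89 against 8.41 ± 1.37 FPKM) were higher. Of 23 apolipoprotein and lipoprotein genes, 9 were higher and 4 lower. Apon, a minor apolipoprotein, averaged 175 ± 16.6 against 44.0 ± 8.17 FPKM and Apoa4 22.1 ± 1.78 against 7.17 ± 1.71 FPKM, whereas Apom, the carrier of sphingosine phosphate, was lower at 150.3, 205, 164 and 153 FPKM in BALBc and 417, 441, 523 and 428 FPKM in C57 livers (-1.43 ± 0.11, adjusted p = 1.58e-05).

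Called genes of glucose release were more often lower in BALBc, and those of the tricarboxylic acid cycle more often higher. Of 24 genes of gluconeogenesis and glycogen, 10 were lower and 3 higher, although the median of the list changed sign under quantile normalization: Got1, the cytosolic aspartate aminotransferase, averaged 63.2 ± 6.45 against 121 ± 21.4 FPKM and the glycogen branching enzyme Gbe1 3.79 ± 0.13 against 6.498 ± 0.683, whereas Pcx, pyruvate carboxylase, was higher at 211 ± 12.2 against 140.1 ± 7.97 FPKM. Of 28 genes of the cycle and pyruvate entry, 11 were higher and 4 lower. Citrate synthase, Cs, had 22.7, 25.1, 23.8 and 22.9 FPKM in BALBc and 12.6, 16.7, 13.7 and 15.9 FPKM in C57 livers (0.66 ± 0.09, adjusted p = 0.000558). Glycolysis had 4 of 27 genes higher and 7 lower (40.7% called, against 32.1% of all genes). With BALBc hyperoxia 1 alone, 5 gluconeogenic genes were called lower and 3 genes of the cycle higher.

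The urea cycle and ammonia entry had 7 of 18 genes lower and 5 higher, or 3 lower and 0 higher with BALBc hyperoxia 1 alone. Cps1, which starts the cycle, had 289, 278, 314 and 345 FPKM in BALBc and 467, 500.0, 421 and 636 FPKM in C57 livers (-0.71 ± 0.12, adjusted p = 0.00208). Asl, argininosuccinate lyase, averaged 29.1 ± 3.16 against 59.4 ± 9.42 FPKM and Gls2, the liver glutaminase, 43.4 ± 2.98 against 97.5 ± 15.99 FPKM. Breakdown of amino acids was split, with 10 of 33 genes higher and 10 lower, led by Qprt (-0.79), Prodh2 (-0.79), Prodh (1.60) and Mccc2 (0.61).

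Transcripts of the mitochondrial genome were lower in BALBc. Of the 13 protein-coding genes 11 were lower and 0 higher, with a median of -1.38. The cytochrome b gene mt-Cytb, of which few 31-base words occur elsewhere, had 2073, 1913, 1912 and 1991 FPKM in BALBc and 7328, 7012, 6147 and 7065 FPKM in C57 livers (-1.80 ± 0.06, adjusted p = 8.63e-08). mt-Nd6 averaged 1120.2 ± 80.9 against 2922 ± 151 FPKM and mt-Nd4 1058 ± 107 against 2511 ± 139 FPKM, both subunits of complex I. The members that did not pass the test were mt-Nd1, at 0.21 (adjusted p = 0.0794), and mt-Atp8, at -1.21 (adjusted p = 0.0734), both of complexes whose other mitochondrial genes were lower. For mt-Nd3, mt-Atp6, mt-Co2, mt-Co3 and mt-Nd4l every sampled word recurs in a nuclear copy at chr1:24611535-24616197; mt-Nd3 with its copy Gm28438 summed to 15.2 ± 3.46 depth-scaled fragments in BALBc and 36.9 ± 2.89 in C57 livers. Both with library class as a term and with BALBc hyperoxia 1 alone, 7 mitochondrial genes were called lower and 1 higher. Nuclear genes of the respiratory chain showed no such lean, with 11 of 77 higher and 10 lower (median 0.03).

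Ribosomal protein genes were lower almost throughout: 68 of 81 tested were lower and 0 higher, with a median of -0.42. Rpl29, Rpl26, Rps2 and Rps18, described with their copies above, are among them, and 12 of the 68 differed at least 2-fold. Rpl30 had 1.501, 1.38, 1.51 and 1.75 FPKM in BALBc and 35.8, 36.0, 42.2 and 32.0 FPKM in C57 livers (-3.88 ± 0.09, adjusted p = 4.66e-09). Its copy Gm12191 went the other way (1.941 on the log2 scale). With its copies Rpl30 summed to 69.19 ± 10.05 depth-scaled fragments in BALBc and 138.7 ± 9.238 in C57 livers (SD, n = 4 each). The log2 ratio of these sums was -1.003, where Rpl30 by itself gave -4.569. Only 3 of the 81 genes had few shared 31-base words, and all 3 were lower (median -0.31). Single levels of the others carry the limit given for copied genes. With library class as a term 35 of the list were called lower and 0 higher, and with BALBc hyperoxia 1 alone 42 lower and 0 higher.

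**Figure D3:**
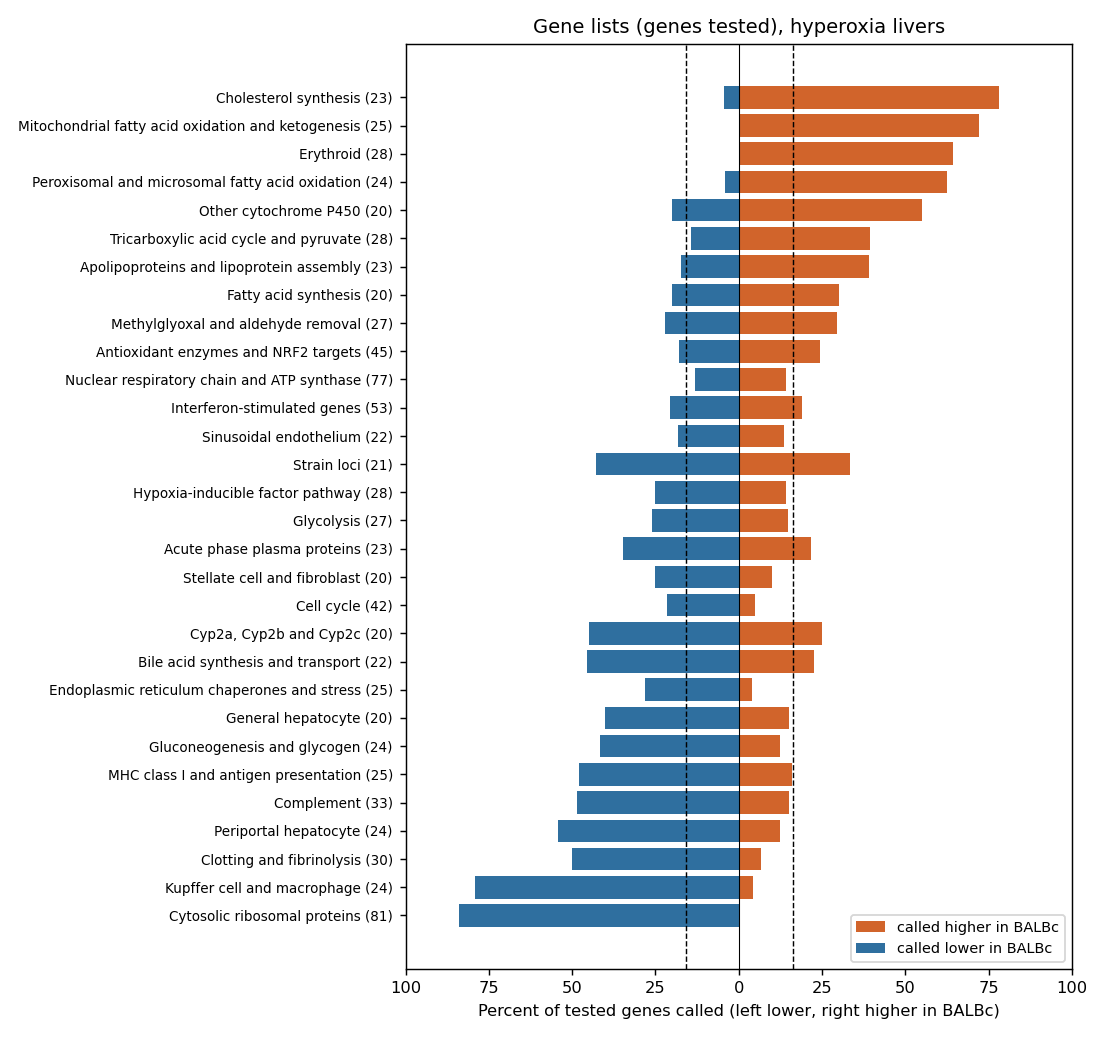
Share of tested genes called higher (right) and lower (left) in BALBc against C57 hyperoxia livers for 30 gene lists, in percent of the genes tested. Among lists with at least 20 genes tested, those with the largest gap between the higher and the lower share were drawn, so the most even lists are left out. Dashed lines mark the shares over all genes, 16.3% higher and 15.7% lower; mitochondrial fatty acid oxidation, cholesterol synthesis and erythroid genes lie to the right, ribosomal protein and macrophage genes to the left.

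Iron and haem genes showed single differences rather than a group pattern. Calls were less frequent among iron genes (20.7%) than among all genes (32.1%). Of 29 iron genes, 3 were higher and 3 lower, or 1 and 2 with BALBc hyperoxia 1 alone and 5 and 4 without that library. Hamp, which encodes the iron hormone hepcidin, varied within strains, with 67.8, 318, 302 and 339 FPKM in BALBc and 111, 59.7, 113 and 212 FPKM in C57 livers, and its log2 difference of 0.95 ± 0.53 did not pass the test (adjusted p = 0.209). BALBc hyperoxia 1 overlapped the C57 range and the other 3 BALBc libraries lay above it. Hamp2, its paralog, had 36.9, 45.0, 57.8 and 45.8 FPKM in BALBc and 9.05, 6.01, 3.10 and 18.4 FPKM in C57 livers (2.44 ± 0.39, adjusted p = 0.00142). Hfe, a sensor that raises hepcidin, was lower at 5.89 ± 0.209 against 11.1 ± 0.493 FPKM, as were transferrin, Trf (323 ± 25.9 against 468 ± 46.5), and the receptor Acvr1 (-0.40), whereas the iron regulatory protein gene Aco1 (54.0 ± 0.742 against 36.2 ± 2.18) and Tmprss6, a protease that lowers hepcidin (234 ± 15.7 against 174 ± 5.34), were higher. The other 23 tested genes of the list, Hamp among them, did not pass the test. Among 17 haem genes 5 were higher and 3 lower, or 3 and 1 with BALBc hyperoxia 1 alone: Alad, the second enzyme of haem synthesis, had 195, 246, 243 and 205 FPKM in BALBc and 60.1, 79.4, 67.9 and 75.6 FPKM in C57 livers (1.64 ± 0.11, adjusted p = 5.76e-06), and Alas1, its rate-limiting enzyme in liver, averaged 41.2 ± 5.12 against 15.96 ± 5.74 FPKM. Hpx, the plasma haem carrier, was lower at 2590.2 ± 134 against 3532 ± 105 FPKM, although quantile normalization turned its log2 difference of -0.45 to 0.059 (limma adjusted p = 0.326).

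Drug- and steroid-metabolising genes diverged gene by gene. In the Cyp2a, Cyp2b and Cyp2c families 5 of 20 were higher and 9 lower. Cyp2c23, an arachidonic acid epoxygenase, had 16.3, 15.2, 13.3 and 16.3 FPKM in BALBc and 81.7, 78.4, 70.1 and 78.7 FPKM in C57 livers (-2.27 ± 0.08, adjusted p = 8.15e-08), and Cyp3a13 had 4.27, 4.49, 3.94 and 4.30 FPKM in BALBc and 30.9, 28.2, 27.5 and 32.5 FPKM in C57 livers (-2.55 ± 0.07, adjusted p = 1.6e-08). In contrast Cyp3a44 averaged 145 ± 21.1 against 42.7 ± 4.24 FPKM, Cyp2d9 97.5 ± 6.33 against 30.4 ± 7.76, and Fmo2, a flavin monooxygenase, 29.6 ± 2.30 against 8.92 ± 0.369 FPKM. The Ces1 cluster at chr8:93056728-93337308 held 6 genes at least 2-fold higher (Ces1b, Gm45910, Ces1d, Gm45909, Ces1f and Ces1g), with Ces1d at 446 ± 6.72 against 195 ± 31.8 FPKM, while Ces1c, which lies among them, was lower at 848 ± 54.5 against 1227 ± 74.9 FPKM, as was Ces2a (-0.95). Of 10 carboxylesterase genes tested, 5 were higher and 4 lower, or 2 and 3 with BALBc hyperoxia 1 alone. Sulfotransferases had 5 of 10 genes lower and 0 higher, with Sult2a2, which sulfates steroids and bile acids, at 104, 109, 102 and 102 FPKM in BALBc and 429.9, 529, 372 and 413 FPKM in C57 livers (-2.04 ± 0.10, adjusted p = 6.61e-07). Many of these genes belong to clusters of close relatives, so single levels carry the limit given for copied genes. Antioxidant enzymes had 11 of 45 genes higher and 8 lower (42.2% called, against 32.1% of all genes). The higher ones included catalase, Cat, at 592 ± 25.8 against 378 ± 22.1 FPKM, and Gsta2, a glutathione transferase, at 6.76 ± 1.18 against 1.28 ± 0.381 FPKM. The lower ones included Hmox1 and Gstm3, and Gstm3 at -2.13 on the log2 scale was the largest called difference of the list. The list median was -0.01.

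Plasma protein genes moved in both directions. Complement had 16 of 33 genes lower and 5 higher, or 11 and 4 with BALBc hyperoxia 1 alone. Clotting had 15 of 30 lower and 2 higher, or 8 lower and 0 higher with that library alone. Acute phase genes had 8 of 23 lower and 5 higher, or 3 and 5 with that library alone. F12, which starts contact activation, had 167, 198, 191 and 169.9 FPKM in BALBc and 359, 355, 395 and 382 FPKM in C57 livers (-1.04 ± 0.07, adjusted p = 7.9e-06), and Kng1, the kininogen it acts through, 695 ± 16.5 against 1015 ± 46.5 FPKM. The higher complement genes were C1s2, C4a (4.24 ± 0.681 against 0.517 ± 0.169 FPKM), C1rb (1.56), C8a (0.33) and Mbl1 (0.21). C1rb shares 73.5% of its 31-base words with other genes, so its own level is uncertain. Summed with its copy C1ra, it gave 162.9 ± 10.15 depth-scaled fragments in BALBc and 224.2 ± 16.19 in C57 livers (SD, n = 4 each), a log2 ratio of -0.46. Alpha-1 antitrypsin genes lay among 5 genes at least 2-fold lower at chr12:103763594-103958975: Serpina1a had 366, 386, 390.4 and 386 FPKM in BALBc and 1346, 1377, 1398 and 1217 FPKM in C57 livers (-1.80 ± 0.06, adjusted p = 4.78e-08), and Serpina1d averaged 262 ± 37.8 against 1079 ± 25.04 FPKM. Serpina1a shares 66.7% and Serpina1d 64.9% of their 31-base words with other genes, so their single levels are uncertain. With Serpina1b, Serpina1d summed to 3086 ± 309.5 depth-scaled fragments in BALBc and 6509 ± 108.1 in C57 livers (SD). The log2 ratio of these sums was -1.08, where Serpina1d by itself gave -2.04. For Serpina1a with its copies the log2 ratio was -1.62. Serpina3k, on the same chromosome as these genes, was higher as given above.

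Genes of antigen presentation, most of them in the histocompatibility region of chromosome 17, differed widely. Class I genes had 12 of 25 lower and 4 higher, or 3 lower and 2 higher of the 13 with few shared 31-base words. Class II genes had 6 of 8 lower and 1, H2-Ea-ps, higher. H2-K1 had 15.8, 30.4, 20.3 and 26.8 FPKM in BALBc and 219, 178, 252 and 194 FPKM in C57 livers (-3.15 ± 0.19, adjusted p = 3.28e-06), and H2-Q7, a non-classical relative, 0.176 ± 0.0161 against 5.42 ± 1.86 FPKM. H2-DMb1, which loads peptides onto class II, averaged 0.241 ± 0.148 against 3.30 ± 0.605 FPKM and H2-T10 was higher at 3.18 ± 0.683 against 0.808 ± 0.0822. H2-T10 shares 58.4% of its 31-base words with other genes, so its own level is uncertain. With its copy H2-T22 it summed to 81.9 ± 10.3 depth-scaled fragments in BALBc and 96.9 ± 3.87 in C57 livers (SD). The log2 ratio of these sums was -0.24. The GRCm38 build named in the processing notes comes from a C57 strain, and this region is highly polymorphic; how far mapping adds to these differences was not tested. Interferon-stimulated genes were split, 10 of 53 higher and 11 lower (39.6% called, against 32.1% of all genes). Gbp11 stood at 133 ± 12.2 against 23.1 ± 10.01 FPKM. Ifi44l had 2.16, 1.40, 2.41 and 2.69 FPKM in BALBc livers and was listed at 0 in all 4 C57 livers.

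Markers of red cells, platelets and granulocytes were higher in BALBc where called, with few exceptions. Of 28 erythroid genes 18 were higher and 0 lower (median 0.81), of 12 megakaryocyte and platelet genes 11 were higher and 1, Clec1b (-0.76), lower (median 0.73), and of 15 neutrophil and eosinophil granule genes 10 were higher and 2, Csf3r (-0.37) and Ear2 (-0.44), lower (median 0.83). Slc4a1 had 16.9, 23.5, 18.1 and 19.6 FPKM in BALBc and 2.58, 1.27, 1.96 and 2.34 FPKM in C57 livers (2.77 ± 0.15, adjusted p = 1.53e-06). Rhd, a blood group antigen, averaged 4.30 ± 0.732 against 0.411 ± 0.206 FPKM. Other red cell messages overlapped between strains: the haemoglobin gene Hbb-bs had 669, 855, 747 and 932 FPKM in BALBc and 955, 651, 623 and 1379 FPKM in C57 livers (-0.11, adjusted p = 0.765), and Alas2, the erythroid haem enzyme, differed by 0.00 (adjusted p = 0.995). Tubb1, the platelet tubulin, had 4.72, 7.45, 4.99 and 6.90 FPKM in BALBc and 0.849, 0.847, 0.715 and 0.705 FPKM in C57 livers (1.96 ± 0.13, adjusted p = 6.08e-06), and the platelet chemokine Ppbp 19.9 ± 3.61 against 5.30 ± 0.974 FPKM. Prg2 had 16.2, 9.22, 17.5 and 12.3 FPKM in BALBc and 1.20, 0.553, 0.24 and 0 FPKM in C57 livers (3.33 ± 0.25, adjusted p = 1.49e-05), and Camp, the neutrophil cathelicidin, 16.7 ± 1.99 against 7.41 ± 1.29 FPKM. With BALBc hyperoxia 1 as the only BALBc library, 14 erythroid, 6 megakaryocyte and 4 granule genes were called higher. In whole tissue, more cells of a kind and more RNA per cell cannot be told apart.

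Macrophage markers ran the other way. Of 24 Kupffer cell and macrophage genes, 19 were lower and 1, Cd163, higher (median -0.55). Like 3551 of the 3946 genes called in all, these 20 separated the strains without overlap. In the fit with BALBc hyperoxia 1 alone, 12 were called lower and 1 higher. Cd5l, a secreted macrophage protein, had 20.1, 22.8, 26.2 and 34.5 FPKM in BALBc and 111, 117, 104 and 91.6 FPKM in C57 livers (-2.01 ± 0.15, adjusted p = 1.23e-05). Marco, a scavenger receptor, had 6.11, 7.93, 6.30 and 10.1 FPKM in BALBc and 39.6, 79.9, 48.8 and 30.9 FPKM in C57 livers (-2.50 ± 0.26, adjusted p = 0.00011). The Kupffer-specific lectin Clec4f was reduced least among these examples, at 54.3 ± 4.65 against 81.8 ± 10.1 FPKM. Fcer1g, a signalling chain, averaged 6.56 ± 1.30 against 21.2 ± 0.998 FPKM and C1qb 45.8 ± 5.04 against 85.4 ± 5.93 FPKM. Cd163, the haemoglobin scavenger receptor, was higher in BALBc, with 6.45, 6.90, 7.53 and 7.47 FPKM in BALBc and 2.80, 2.58, 1.99 and 2.33 FPKM in C57 livers (1.24 ± 0.09, adjusted p = 8.38e-06). Lymphocyte genes were lower where called, 4 of 7 B cell and 5 of 9 T and NK cell genes with 0 higher, for example Cd79a at 1.71 ± 0.394 against 4.30 ± 0.881 FPKM and Gzmb at 0.345 ± 0.141 against 2.15 ± 0.475 FPKM. Sinusoidal endothelium was even, with 3 of 22 higher and 4 lower (31.8% called, against 32.1% of all genes). Cholangiocyte genes had 4 of 9 lower; of these Krt19 was high in C57 hyperoxia 3 and 4, with 1.60, 1.92, 1.43 and 1.62 FPKM in BALBc and 3.15, 1.82, 8.46 and 6.75 FPKM in C57 livers, and the part of those libraries in it was not tested.

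**Figure D4:**
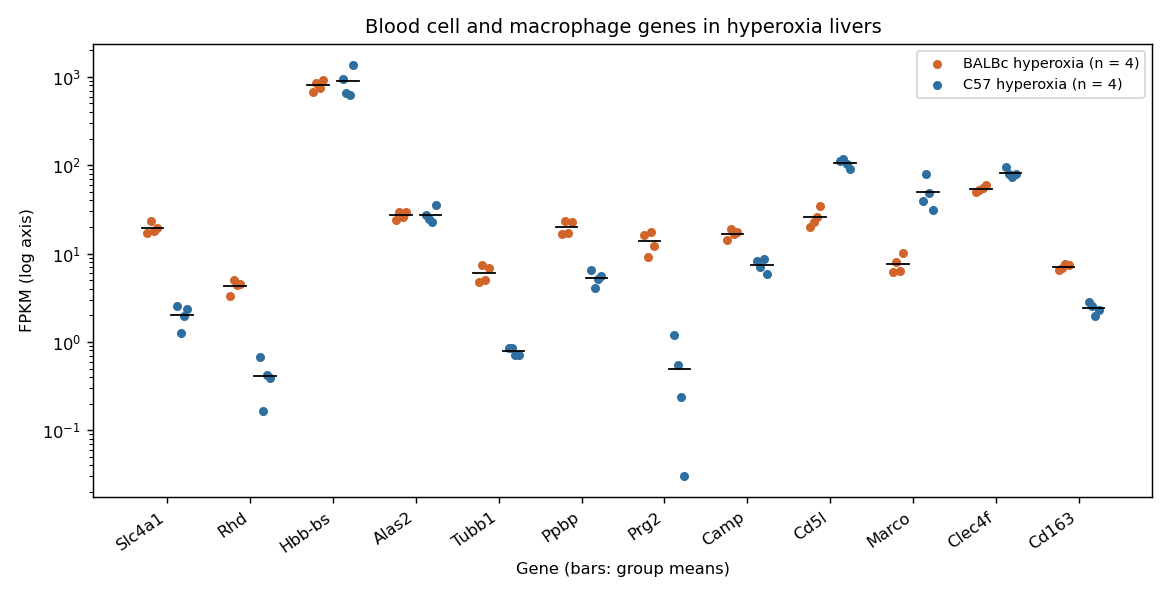
FPKM of 12 marker genes of blood and macrophage lineages in each hyperoxia liver (log axis); points are libraries, BALBc left and C57 right in each pair, and bars mark group means. Values below 0.03 FPKM are drawn at 0.03; Slc4a1, Tubb1 and Prg2 are higher in BALBc, Marco and Cd5l lower, and Hbb-bs and Alas2 overlap.

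Of 24 periportal hepatocyte genes 13 were lower and 3 higher (median -0.41), or 6 and 1 with BALBc hyperoxia 1 alone. The lower ones included Ctsc (4.74 ± 0.155 against 12.7 ± 1.62 FPKM), Hsd17b6 (53.6 ± 5.10 against 129 ± 17.2), Gls2 and Asl. Of 25 pericentral genes 5 were higher and 5 lower (median -0.02), and a difference between the zones was not tested. Cyp2e1, a pericentral enzyme, was higher at 2241 ± 84.7 against 1534 ± 116 FPKM and Cyp2c29 lower at 25.4 ± 5.32 against 65.8 ± 8.89 FPKM. The periportal list shares its urea cycle members with the list above. Of 20 general hepatocyte genes 3 were higher and 8 lower (median -0.13), and their summed level was 89640 to 92000 FPKM in BALBc and 100100 to 103000 FPKM in C57 livers.

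Several fetal liver genes were lower in BALBc. Of 13 tested genes of the Zhx2 list, 8 were lower and 1, Cyp2a5 (0.74), higher. The median was -0.92, or -0.75 with BALBc hyperoxia 1 as the only BALBc library. Cyp2a4 (-1.85), 1 of the 8, has Cyp2a5 as its copy, so their single levels are uncertain. Their sum was 21.27 ± 7.027 against 19 ± 5.067 depth-scaled fragments (BALBc against C57, SD, n = 4 each), a log2 ratio of 0.16. Of the 7 genes of the list with few shared 31-base words, 6 were lower and 0 higher. Of 17 imprinted genes of fetal growth, 7 were lower and 2 higher. Their median was 0.03, or -0.11 with BALBc hyperoxia 1 alone. Afp, the fetal counterpart of albumin, had 58.0, 40.1, 37.5 and 37.5 FPKM in BALBc and 303, 121, 503 and 239.6 FPKM in C57 livers (-2.57 ± 0.36, adjusted p = 0.000679). H19, an imprinted non-coding RNA, had 1478, 1314, 1047 and 1256 FPKM in BALBc and 5192, 3929, 4165 and 4359.7 FPKM in C57 livers (-1.79 ± 0.12, adjusted p = 5.25e-06), and its imprinted neighbour Igf2, a fetal growth factor, 3.11 ± 0.876 against 19.2 ± 3.60 FPKM. Gpc3, a fetal proteoglycan, averaged 9.72 ± 0.914 against 43.7 ± 10.7 FPKM. Of the proteins that bind growth factor in plasma, Igfbp1 was lower at 184, 185, 231 and 191 FPKM in BALBc and 785, 593, 878 and 689 FPKM in C57 livers (-1.88 ± 0.12, adjusted p = 5.8e-06) and Igfbp2 at 777 ± 149.6 against 2486 ± 668 FPKM, whereas Igf1, the postnatal growth factor, was higher (0.46). Growth hormone and IGF genes had 6 of 17 higher and 5 lower, or 0 and 3 with BALBc hyperoxia 1 alone. Cell cycle genes had 9 of 42 lower (15.7% of all genes were lower), with Mcm6, a replication helicase, at 8.51 ± 0.706 against 19.4 ± 2.43 FPKM, and 2 higher, Cdkn1a (0.76) and Mki67 (0.26). In either direction 26.2% of this list was called, against 32.1% of all genes. With BALBc hyperoxia 1 alone 1 cell cycle gene was lower and 1 higher, and with library class as a term 3 and 1. Clock genes had 7 of 17 higher, Per3 (0.77) and Hlf (0.54) among them, and 2 lower, Arntl (-0.37) and Npas2 (-0.45); the labels give no hour of collection.

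Most genes called after hyperoxia had a strain difference of the same sign in livers kept in room air, though fewer were called there. The 3 BALBc and 4 C57 normoxia libraries share no library with the comparison above and were fitted alone; in them 2202 of the same 12305 genes were called (17.9%). Of the 3946 genes called after hyperoxia, 3681 (93.3%) had the same sign in normoxia and 1657 (42.0%) were also called with that sign, while 6 were called with the opposite sign. Of the 2202 normoxia calls 75.2% were called with the same sign after hyperoxia. Among the 536 genes that differed at least 2-fold, 518 had the same sign and 404 (75.4%) were called. Across all genes, which are not independent, 75.3% had the same sign, and the 2 sets of log2 differences correlated with r of 0.79. Some lists leaned differently in room air. The median log2 difference of megakaryocyte and platelet genes was 0.73 after hyperoxia and 0.04 in room air, and that of mitochondrial genome transcripts was -1.38 and -0.31. Medians of opposite sign were seen for more lists than are named here. Among them were periportal genes (-0.41 after hyperoxia, 0.08 in room air), pericentral genes (-0.02 and 0.27), bile acid genes (-0.31 and 0.04) and the urea cycle (-0.14 and 0.25). Amino acid breakdown (-0.15 and 0.08), the methionine cycle (-0.03 and 0.20) and glycolysis (0.02 and -0.17) were others. So were acute phase genes (-0.13 and 0.15), imprinted genes (0.03 and -0.35) and cell cycle genes (-0.20 and 0.11). These differences between medians were not tested.

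The difference between the strain differences was tested directly in a fit over all 15 libraries. At an adjusted p under 0.05, 104 genes were called (0.845%), and 1585 had an unadjusted p under 0.05. In 29 of the 104 the strain difference was larger after hyperoxia than in room air. Cyp2c70, which makes muricholic acids, changed sign, at 140.3 ± 17.8 against 266 ± 22.2 FPKM after hyperoxia and 269 ± 15.8 against 184 ± 28.7 in room air (BALBc against C57, SD, n = 4 each after hyperoxia and 3 and 4 in room air; -1.48 ± 0.16, adjusted p = 0.00096).

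Some strain differences were smaller after hyperoxia. Mug1, a plasma protease trap, had 48.3, 46.02, 61.5 and 59.9 FPKM in BALBc and 37.9, 46.2, 33.3 and 42.7 FPKM in C57 livers after hyperoxia, against 123, 105 and 167 FPKM in BALBc and 18.2, 16.5, 17.3 and 22.8 FPKM in C57 livers in room air (-2.32 ± 0.22, adjusted p = 0.000225). Hmox1, haem oxygenase, averaged 24.1 ± 2.54 against 32.8 ± 2.83 FPKM after hyperoxia and 17.8 ± 1.96 against 59.7 ± 7.82 in room air (1.26 ± 0.15, adjusted p = 0.00265). The innate receptor Tlr2 and the oxidase subunit Ncf4 overlapped between strains after hyperoxia, with log2 differences of -0.10 and 0.04 after hyperoxia against -1.80 and -1.33. Igfbp2 (-1.66 against -3.31), Thrsp (1.31 against 2.97) and Saa4, a constitutive serum amyloid (0.07 against 0.96), likewise differed less after hyperoxia, with adjusted p of 0.0128, 0.00488 and 0.0109 for the difference. Serpina3k, the largest increase among protein-coding genes, also differed less after hyperoxia (4.34 against 7.55, adjusted p = 0.0191).

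Other strain differences were larger after hyperoxia or changed sign. Acot2 differed by 2.11 after hyperoxia and by 1.04 in room air (1.07 ± 0.14, adjusted p = 0.00444). Gstt2, a glutathione transferase, differed by 0.59 and -0.34 (adjusted p = 0.0128), and Mug2 by -1.67 and 0.35 (adjusted p = 0.00488). Hamp changed sign: though not called after hyperoxia, it differed by 0.95 there and by -2.96 in room air (3.91 ± 0.75, adjusted p = 0.0268), with 2.68, 1.11 and 1.42 FPKM in the 3 BALBc and 8.49, 31.8, 23.4 and 23.3 FPKM in the 4 C57 normoxia livers. The platelet gene Ppbp (1.73 against -0.04, adjusted p = 0.0178) and Cyp4a10 (1.63 against -0.30, adjusted p = 0.0186) belong to the 104 as well. The count of 104 is sensitive: it was 28 with library class as a term. Of the 15 genes named from it here, Cyp2c70, Mug1, Hmox1, Tlr2, Ncf4, Thrsp, Saa4, Serpina3k, Acot2 and Mug2 were called with that term, and Igfbp2, Gstt2, Hamp, Ppbp and Cyp4a10 were not. The count was 39 without BALBc hyperoxia 2, 58 without BALBc hyperoxia 3, 47 without BALBc hyperoxia 4, 43 without C57 hyperoxia 2, 50 without C57 hyperoxia 4, 46 without BALBc normoxia 2, 42 without BALBc normoxia 3 and 161 without C57 normoxia 4.

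**Figure D5:**
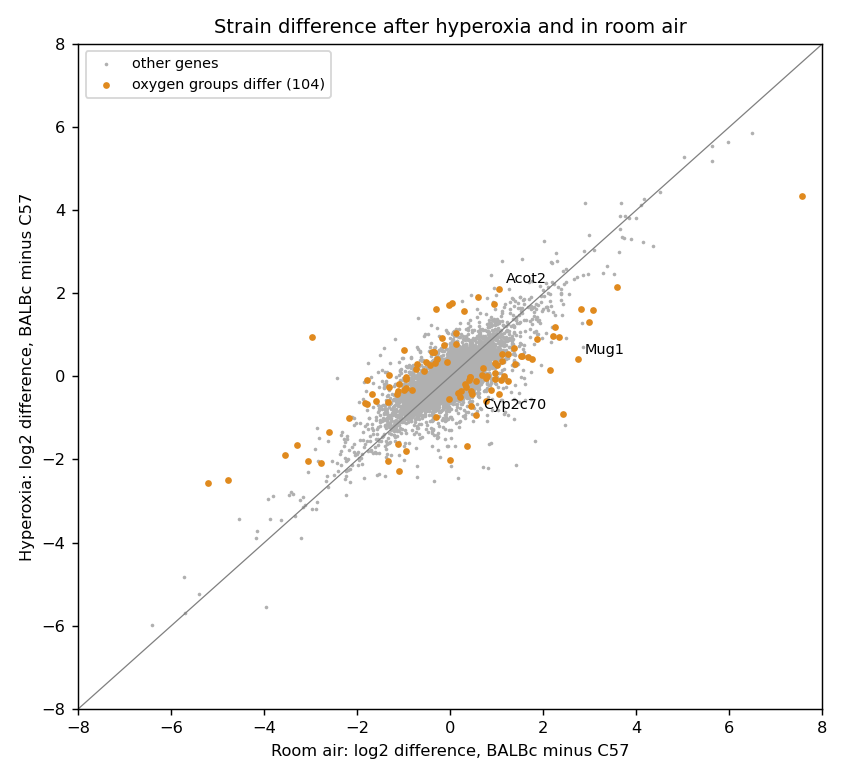
Strain difference (log2 scale, BALBc minus C57) after hyperoxia (vertical axis) against that in room air (horizontal axis) for the 12305 genes. Orange points are the 104 genes whose strain difference itself differed between the oxygen groups, with Mug1, Cyp2c70 and Acot2 labelled; the grey diagonal marks equal differences.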

How the data were processed

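Per the labels' protocols, TRIzol was used for extraction and NEBNext Ultra II for library preparation. The authors deposited FPKM values per gene for 15 liver libraries. HISAT2 2.0.5, featureCounts 1.5.0-p3 and the GRCm38/mm10 build are named in the submitters' processing notes, without their roles. No source used here states the strandedness. The 8 hyperoxia libraries were compared on log2(FPKM + 1) for genes that reached 1 FPKM in 3 or more of them, with limma 3.58.1 in R 4.3.3 (variance trend, Benjamini-Hochberg over all genes). A difference of log2 values understates the change of weakly expressed genes. Nothing in the labels says that libraries come from separate animals, so p-values measure the spread between these samples. Relative depth was read from the steps of low FPKM values, with a tolerance of 0.05 of a fragment. The oxygen comparison used 1 fit over all 15 libraries. The scripts were tested on simulated data.

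Libraries were treated as unpaired. Genes and lists were chosen with earlier results of these data known. Named genes are the 12 largest called protein-coding differences in each direction whose higher group averaged 2 FPKM or more, up to 4 members of each list with the smallest p, the strain loci and iron genes, and the 6 smallest p in each direction for the oxygen difference. Other genes named, mostly single exceptions within a list, copies of named genes and cell type markers, were chosen after their values were seen. A few genes that fall under these rules are not reported here. Shared sequence was measured on 1 in 16 of the 31-base words of GENCODE M21 transcripts. Sums over copies use FPKM times gene length. The alternatives tried are listed with their effect in the closing section.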

Additional observations from a re-analysis of the deposited data

Results flagged for a closer look

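Single libraries stood apart from the other 3 of their group for 17 values, among 386 groups of 4 libraries looked at; chance flags about 1 in 20 groups. In BALBc hyperoxia 1 the values were highest for Afp (58.0 FPKM), Hmgcs1 (82.9 FPKM) and mt-Co3 (57.8 FPKM) and lowest for Hamp (67.8 FPKM). BALBc hyperoxia 3 was lowest for Aco1 (52.9 FPKM) and highest for Igfbp1 (231 FPKM), and BALBc hyperoxia 4 was highest for Hmox1 (27.9 FPKM). C57 hyperoxia 1 was highest for Clec1b (3.39 FPKM) and Xist (54.0 FPKM). C57 hyperoxia 2 was highest for Alas1 (24.5 FPKM) and lowest for H2-DMb1 (2.41 FPKM), and C57 hyperoxia 3 was highest for Pex11a (6.55 FPKM) and Cela1 (6.34 FPKM). C57 hyperoxia 4 was lowest for Acadvl (82.4 FPKM) and highest for C1s2 (0.0931 FPKM), Gls2 (121 FPKM) and Prodh2 (275 FPKM).

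For 32 named genes the strain difference itself differed between hyperoxia and room air (limma interaction over 15 libraries, Benjamini-Hochberg adjusted p under 0.05). The values are the strain difference after hyperoxia minus that in room air, BALBc minus C57 on the log2 scale. Among lipid and drug metabolism genes it was 1.07 for Acot2, 1.72 for Acot3, 1.93 for Cyp4a10, 1.10 for Cyp4a14, 1.28 for Fabp5, 0.74 for Soat1, -1.66 for Thrsp, -1.48 for Cyp2c70, -0.69 for Sult2a2, -0.51 for Ces1c and 0.93 for Gstt2. Among nitrogen and mitochondrial genes it was -1.16 for Cps1, -1.47 for Prodh, -0.49 for Ahcy and -0.85 for mt-Cytb. Among plasma protein genes it was -2.32 for Mug1, -2.02 for Mug2, -3.21 for Serpina3k, 1.02 for Serpina1d, -0.63 for C8a and -0.88 for Saa4. Among genes of growth, iron and blood cells it was 2.65 for Afp, 1.67 for Igfbp1, 1.65 for Igfbp2, 3.91 for Hamp, 1.26 for Hmox1, 2.28 for Marco, 1.70 for Tlr2, 1.36 for Ncf4, 1.76 for Ppbp and 1.31 for Rhd. For the clock gene Per3 it was 0.64. With library class as a term, 13 of these genes were called: Acot2, Afp, Cyp2c70, Fabp5, Hmox1, Mug1, Mug2, Ncf4, Prodh, Saa4, Serpina3k, Thrsp and Tlr2. The other 19 were not.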

How the results depend on the processing

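The 3946 genes called became 1940 with library class as a term over 15 libraries, 2367 with a covariate for weakly expressed genes, 2618 with the filter at an FPKM of 5 and 1394 with the class with many genes at 1 fragment only. Genes higher, 2008, became 984, 1167, 1332 and 659 under these, and genes lower, 1938, became 956, 1200, 1286 and 735. The fit over 15 libraries without library class as a term gave 2988 calls, 1536 higher and 1452 lower. The stricter filter tests fewer genes, and the setting with that class only keeps 1 BALBc library. For the class term and the covariate the cause was not tested. The 536 genes at least 2-fold apart became 312 with the stricter filter, 309 without features likely to share reads, 862 with a pseudocount of 0.1, and 265 with only genes of few shared 31-base words, an alternative chosen after seeing the data. The 104 genes of the oxygen comparison became 28 with library class as a term. Leaving out 1 library gave 3287 to 3706 calls, 1654 to 1888 higher, 1593 to 1828 lower, 527 to 571 at least 2-fold apart, 39 to 161 for the oxygen comparison and 2929 to 3750 for the strain difference in room air, which was 3787 in the 15-library fit. Deviations of same-numbered libraries correlated at -0.048 to 0.0192 in 4 pairs, 0 of them above 0.1, so the numbers were not taken to pair libraries; with the replicate block, 3613 genes were called, 1807 higher and 1806 lower, 540 at least 2-fold apart, 89 for the oxygen comparison and 3606 in room air. Of 180 named genes called, 142 stayed past the threshold with the same sign under every alternative run. Hpx turned sign under quantile normalization, to 0.059. FPKM limits the precision of weakly expressed genes, since a library of 1.49e+07 to 1.86e+07 fragments holds few fragments for them.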

Other observations

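Called genes at least 2-fold apart lay close together in places not described above. At chr8:10858750-11149246 5 of the 9 tested genes were at least 2-fold lower in BALBc hyperoxia livers. At chr15:82433437-82707353 5 of the 6 tested genes, Cyp2d9 among them, were at least 2-fold higher. These groups were picked after the values were seen and carry no test.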
